A study of Mus musculus with 18 samples.

Results

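A set of 10 genes of the smooth muscle contractile apparatus was followed through the prostate: Myh11, Acta2, Mylk, Cnn1, Tagln, Actg2, Des, Smtn, Lmod1 and Synpo2. They were chosen by name, and all 10 of the 10 listed symbols were found among the 55469 genes in the tables. The libraries hold total RNA of the ventral and lateral prostate lobes of male mice, whose strain the labels give as C56NL/6N, at 10 or 30 weeks of age. Each age has 3 wild-type libraries (WT, labelled ELAC2+/+), 3 knockout libraries (KO, labelled ELAC2-/-) and 3 libraries of mice with the Ala537Thr substitution (A537T, labelled ELAC2A537T), which makes 18 libraries in 6 groups. In the KO, Pb-Cre, a recombinase under a probasin promoter that is active in prostate epithelium, deleted exon 8 of Elac2, so the muscle cells that express the 10 genes are not the cells in which the Cre is driven. The A537T substitution is carried by every cell of the animal. Elac2 encodes the endonuclease that trims the 3′ ends of precursor tRNAs, and the comparisons ask how the prostate transcriptome differs from WT when it is lost or altered. No group here carries the TRAMP transgene in its genotype label.

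The prostate gland is a set of epithelial ducts wrapped in a fibromuscular stroma, and smooth muscle contraction expels the secretion. In smooth muscle, a rise in calcium activates myosin light chain kinase, which phosphorylates the light chain of myosin so that it can move along actin filaments. Intermediate filaments and dense bodies tie the filaments to the cell membrane. Many of these genes are switched on by serum response factor (SRF) with its cofactor myocardin, through a DNA element called the CArG box. The seminal vesicle, which lies against the prostate, has a thick smooth muscle wall of its own. Skeletal muscle shares desmin with smooth muscle but has its own myosins and actins. In tissue RNA, fewer cells of a type and less RNA per cell cannot be told apart.

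The Acta2 promoter shows the regulatory element at the base level. Promoter windows of 300 bases (250 before and 50 after the annotated start, RefSeq, GRCm38.p6) were held for 7 of the 10 members: Acta2, Mylk, Cnn1, Des, Smtn, Lmod1 and Synpo2. Myh11, Tagln and Actg2 had no entry. The strict CArG box was absent from the 7 windows and stood in 1.63% of all 32851 windows. Since the actin promoters are known for boxes with a substituted base, a wider form was searched after this result had been seen: CCNNNNNNGG with at least 5 of the 6 middle letters A or T, which reads the same on both strands. The wider form stood in 9.98% of all windows, in 1 of the 7 members' windows, and 2 times in that of Acta2, as in 0.822% of all windows. The boxes are shown in capitals with 10 bases on each side, 5′ to 3′ on the minus strand of chromosome 19.
Acta2 box 1, chr19:34255438-34255467: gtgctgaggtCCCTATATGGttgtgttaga
Acta2 box 2, chr19:34255388-34255417: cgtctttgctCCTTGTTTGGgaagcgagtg
Measured from the start that the promoter table uses, box 1 begins 84 bases and box 2 begins 34 bases before it. GENCODE M21 places the start of the transcript Acta2-201 farther upstream, at base 34255590, so that both boxes fall in its exon. A match of letters is a description of the window, not evidence of binding.

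Elac2 was counted in every library (ENSMUSG00000020549.14). At 10 weeks its normalized counts, which are gene counts divided by a size factor per library, were 124, 142 and 166 in WT and 119, 111 and 115 in KO, with all KO libraries below all WT libraries. The A537T libraries held 173, 165 and 158 at 10 weeks. At 30 weeks the KO libraries held 98, 151 and 122 against 150, 153 and 194 in WT, and the groups overlapped. A count over the whole gene includes transcripts that lack exon 8, and Elac2 did not pass the test in the KO at either age (limma adjusted p = 0.325 and 0.478).

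The libraries held between 6569642 and 11225281 reads assigned to genes (median 8586877). RNA of the seminal vesicle was among them, although the dissection described with the samples took off the seminal vesicles, with the connective and fat tissue around them, before the lobes were separated. The summed share of 9 seminal vesicle markers ran from 4.64% to 10.3% of counts in 8 libraries, was 1.77% in WT library 11AF and was at most 0.191% in the other 9. The 8 are WT library 10AF and KO libraries 13AF, 14AF and 15AF at 10 weeks, and KO libraries 4AF and 6AF and A537T libraries 7AF and 9AF at 30 weeks, named as the columns of the tables name them. Skeletal muscle RNA was present at 10 weeks: the summed share of 24 markers was 3.79% to 12.4% in WT, 1.49% to 4.19% in A537T and 0.0584% to 1.98% in the KO libraries. At 30 weeks it was at most 0.0704% in any library. In KO library 5AF and A537T library 8AF, all 9 seminal vesicle markers had 3 reads or fewer, as they did in WT library 2AF. A 95% Wilson interval of a summed share covers counting error alone and not the differences between mice or dissections. It was within 6.53% of the value on either side for the skeletal muscle markers and within 1.41% for the 10 members.

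The 10 genes together took 0.189% to 1.04% of all counts, a 5.53-fold difference between the lowest and the highest library. At 10 weeks the summed share was 0.627%, 0.278% and 0.189% in the WT libraries 10AF, 11AF and 12AF. It was 0.688%, 0.511% and 0.688% in KO libraries 13AF, 14AF and 15AF, while A537T libraries 16AF, 17AF and 18AF held 0.340%, 0.562% and 1.04%. KO library 14AF thus lay inside the WT range of this age, and the other KO libraries lay just above it. At 30 weeks the WT libraries 1AF, 2AF and 3AF were close together, at 0.241%, 0.326% and 0.321%. The KO libraries 4AF, 5AF and 6AF held 0.469%, 0.280% and 0.412%, and the A537T libraries 7AF, 8AF and 9AF held 0.446%, 0.238% and 0.483%. In each mutant group of this age the library whose seminal vesicle markers had 3 reads or fewer lay inside or just below the WT range and the other 2 lay above it.

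**Figure D1:**
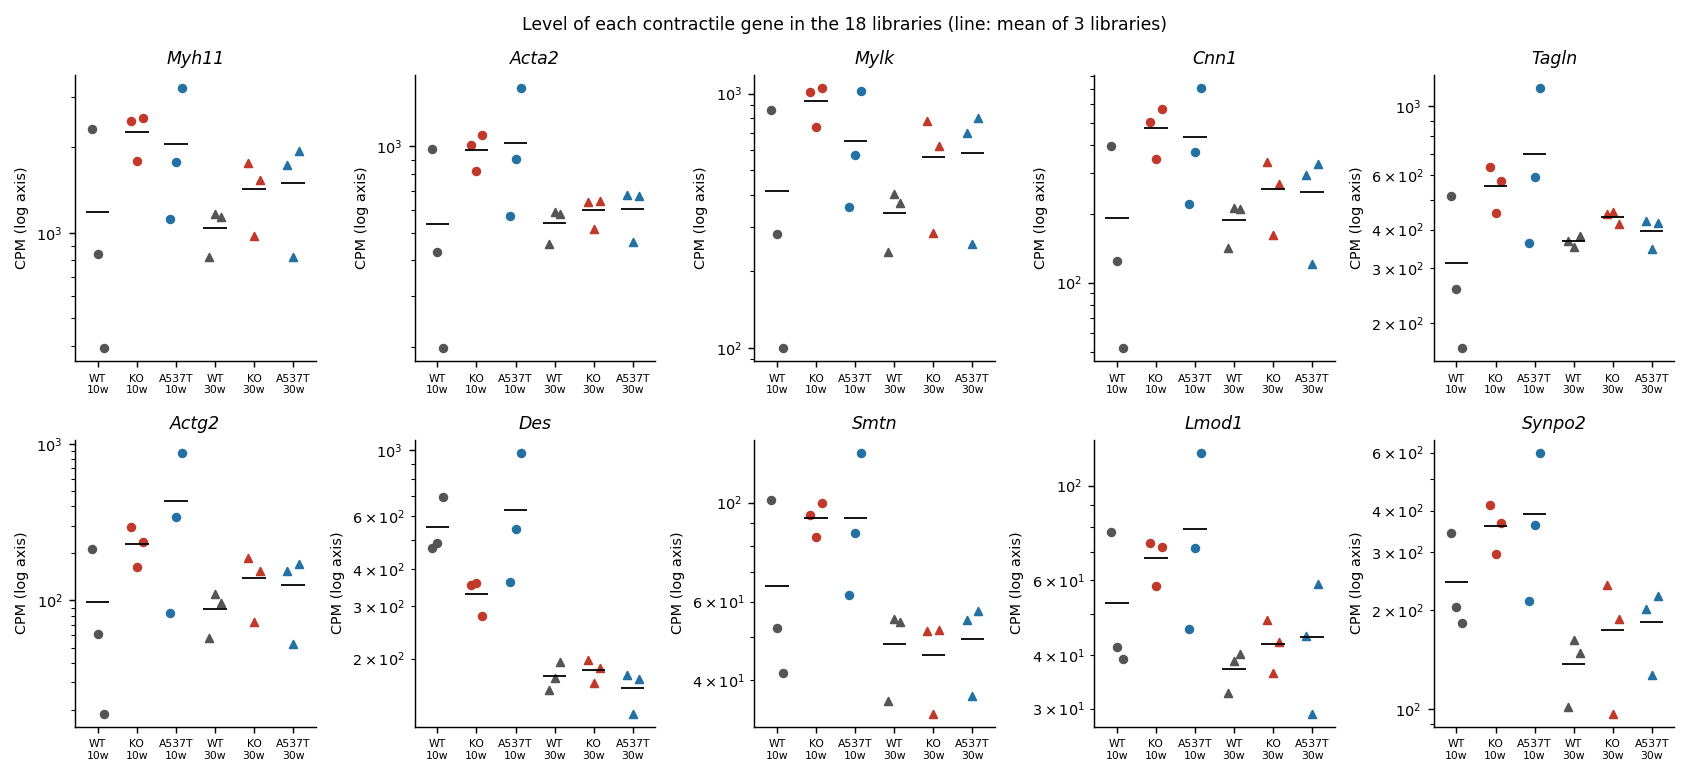
Counts per 1000000 (CPM, log axis) of each of the 10 genes in every library, by group; circles are 10-week and triangles 30-week libraries, and the line is the mean of 3 libraries. At 10 weeks the WT libraries spread from 392.5 to 2313 CPM for Myh11, and the A537T library 18AF is the highest of the 18 for 9 of the 10 genes.

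In GRCm38 the 10 genes lie on 7 chromosomes, and their exons were taken from GENCODE M21. Chromosome 1 holds Des (ENSMUSG00000026208.9) from 75360329 to 75368579 and Lmod1 (ENSMUSG00000048096.7) from 135324807 to 135368065. Chromosome 9 holds Cnn1 (ENSMUSG00000001349.5) from 22099216 to 22109630 and Tagln (ENSMUSG00000032085.5) from 45929619 to 45936058, and chromosome 16 holds Myh11 (ENSMUSG00000018830.10) from 14194535 to 14291372 and Mylk (ENSMUSG00000022836.11) from 34745210 to 35002420. Of the others, Synpo2 (ENSMUSG00000050315.14) from 123076519 to 123236149 lies on chromosome 3, and Actg2 (ENSMUSG00000059430.14) from 83512905 to 83536265 on chromosome 6. Chromosome 11 holds Smtn (ENSMUSG00000020439.17) from 3517523 to 3540612, and chromosome 19 holds Acta2 (ENSMUSG00000035783.9) from 34241090 to 34255590.

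Per kilobase of exon, alpha actin, the myosin and transgelin led. Acta2, the alpha actin of smooth muscle, had the highest median over the 18 libraries, at 293 CPM per kb, with a range of 89.8 to 732. Myh11, the smooth muscle myosin heavy chain, followed at 215 CPM per kb (51.7 to 427), and Tagln, an actin-binding protein also called SM22-alpha, stood at 213 CPM per kb (83.3 to 579). Cnn1, calponin, which binds actin and restrains myosin, had a median of 103 CPM per kb, and Actg2, the gamma actin of enteric and other visceral muscle, 99.6 CPM per kb. Des, the intermediate filament desmin, stood at 63.3 CPM per kb, and Mylk, the myosin light chain kinase, at 53.2 CPM per kb. Synpo2, an actin-bundling protein of the Z-disc and dense body, stood at 15.9 CPM per kb, Smtn, smoothelin, at 12.5 CPM per kb, and Lmod1, the actin-nucleating leiomodin, at 11.5 CPM per kb. In this order of levels, the steps from Tagln to Cnn1 and from Mylk to Synpo2 were larger than the standard deviation (SD) of the higher gene over the 18 libraries, and the other 7 steps were smaller. Actg2 varied most, by 46.5-fold between the lowest library (12AF) and the highest (18AF), and Smtn varied least, by 3.84-fold.

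The members rose and fell together from library to library. Over the 18 libraries the log2(CPM + 1) of a member followed the mean of the other 9 with a Pearson r of 0.87 to 0.95 for all members except Des, for which r was 0.33. Within the 9 libraries of 10 weeks r was 0.92 to 0.99 for the same 9 genes and -0.05 for Des. Within 30 weeks it was 0.54 for Tagln and 0.71 for Des, and 0.83 to 0.99 for the other 8. These correlations are descriptions over libraries that share their depth and their tissue makeup.

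A mean of at least 10 CPM was reached by 8989 genes, members included, and the 10 others most like the mean of the members were ranked by Pearson r over the 18 libraries. Itga1, an integrin subunit that binds collagen, came first (r = 0.97), before Sparcl1, a matrix protein, Flna, the actin cross-linker filamin A, and Carmn, a long noncoding RNA of smooth muscle and heart (r = 0.96 each). Tns1, a protein of focal adhesions, Mgat4a, a glycosyltransferase, and Ppp1r12a, the targeting subunit of myosin phosphatase, followed with r = 0.96, 0.96 and 0.95. Tspan18, Rbpms, an RNA-binding protein, and Igfbp7 closed the list with r = 0.95 each. Flna also stands in a list of contractile genes described further on.

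The KO at 10 weeks had higher levels of 9 of the 10 genes than WT and a lower level of Des, and none of the 10 passed the test. Myh11 had normalized counts of 18538, 7183 and 4065 in WT and of 18454, 14603 and 19027 in KO. The KO libraries were thus all high, and 1 of the 3 WT libraries, 10AF, was as high as they were. The log2 fold change of Myh11 was 1.08 ± 0.52 (SE), with a limma adjusted p of 0.295. Acta2 held 7847, 3660 and 2043 in WT and 7538, 6684 and 8215 in KO (log2 fold change 0.94 ± 0.45, adjusted p = 0.296). The enteric actin Actg2 differed more, with 1711, 516 and 196 in WT and 2194, 1330 and 1766 in KO (1.63 ± 0.71, adjusted p = 0.268). The order of the 3 WT libraries was the same for these filament genes, with 10AF at the top and 12AF at the bottom.

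The regulators and actin-binding proteins followed the filaments. Mylk held 6905, 2384 and 1032 in WT and 7534, 6024 and 7931 in KO, a log2 fold change of 1.47 ± 0.62 (adjusted p = 0.259). Cnn1 held 3173, 1060 and 536 in WT and 3733, 2812 and 4305 in KO (1.55 ± 0.59, adjusted p = 0.234). Tagln held 4128, 2190 and 1716 in WT and 4731, 3683 and 4305 in KO (0.76 ± 0.32, adjusted p = 0.257). Each of the 3 overlapped between the groups only through WT library 10AF. Smtn, Lmod1 and Synpo2, the lowest of the 10 per kilobase of exon, had log2 fold changes of 0.40 ± 0.25, 0.21 ± 0.22 and 0.40 ± 0.20, and their WT library 10AF lay within or above the KO range.

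Des went the other way. Its normalized counts were 3755, 4153 and 7234 in WT and 2629, 2919 and 2086 in KO, so that all KO libraries were below all WT libraries. The log2 fold change was -0.94 ± 0.27 (limma adjusted p = 0.183), and on the recovered reads DESeq2 called it lower (log2 fold change -0.98, adjusted p = 0.0225). Des is also a filament of skeletal muscle, whose markers took 12.4% of counts in WT library 12AF, where Des was highest, and 0.0584% in KO library 15AF, where it was lowest; their part in the difference was not tested. With the skeletal muscle score as a covariate the log2 fold change of Des was -0.43 (adjusted p = 0.9997). The share of these markers did not overlap between the groups, at 3.79% to 12.4% in WT and 0.0584% to 1.98% in KO. That fit therefore cannot separate the markers from genotype.

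Counted together at 10 weeks in the KO, 0 of the 10 genes passed limma's adjusted p of 0.05, as did 0.0% of the 15089 genes tested. At an unadjusted p under 0.05, 2 were higher (Cnn1 and Tagln, against 7.97% of tested genes) and 1 was lower (Des, against 11.5%). DESeq2 called 1 of the 10, Des, against 4.75% of its tested genes, and edgeR called 0. In 0 of the 10 genes did the KO libraries all lie above WT (11.7% of tested genes), and in 1 they all lay below (14.3%). The median log2 fold change of the 10 was 0.85, beside -0.01 over all tested genes. WT library 10AF decided the count: without it 9 of the 10 genes were called, 8 higher and Des lower, while 18.8% of all tested genes were called. The seminal vesicle markers took 4.64% of counts in 10AF, 1.77% in 11AF, 0.000808% in 12AF and 6.56% to 10.3% in the KO libraries. Within WT they had the order of the members' summed share, while KO library 14AF held more of them than 10AF (6.56% against 4.64%) and less of the members (0.511% against 0.627%); their part was not tested. With the seminal vesicle score as a covariate, which was chosen after the data had been seen, the median was 0.36, and with the skeletal muscle score it was 0.28. Neither marker share overlapped between KO and WT at 10 weeks, so these fits cannot separate the markers from genotype.

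**Figure D2:**
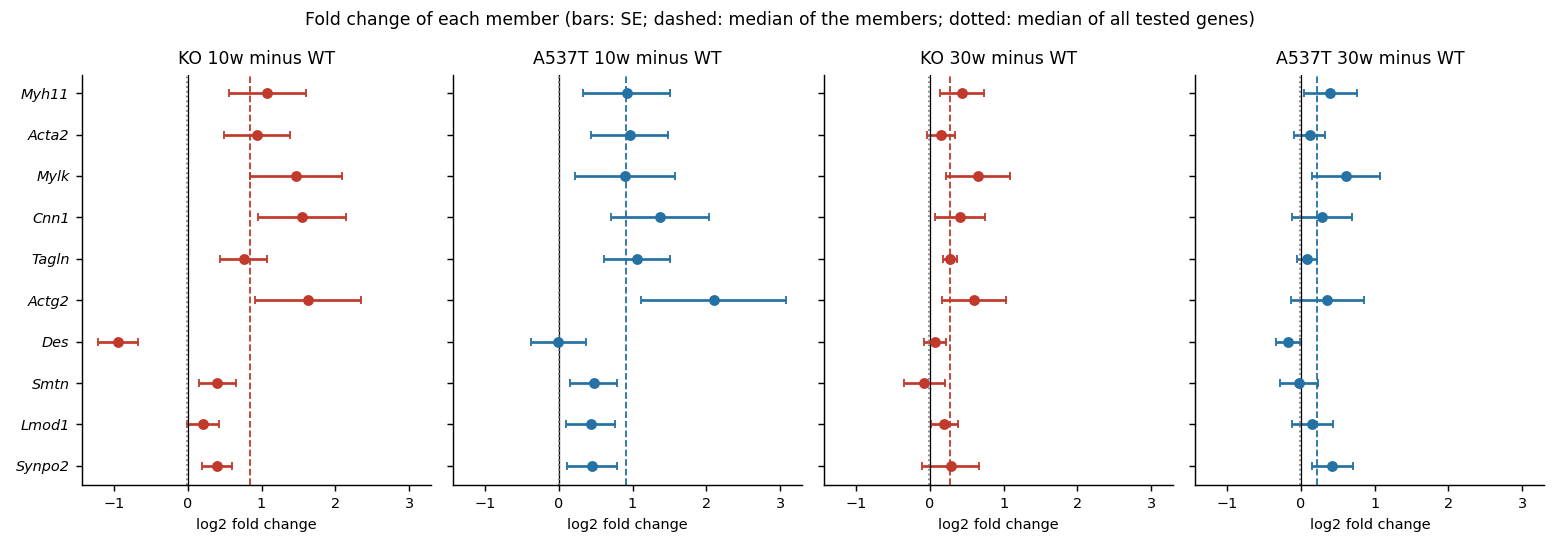
log2 fold change of each member, mutant minus WT, in the 4 comparisons; points are limma estimates on log2(normalized count + 1) with standard errors, the dashed line is the median of the 10 and the dotted line the median of all tested genes. At 10 weeks the members' medians are 0.85 in the KO and 0.91 in A537T, and Des stands apart at -0.94 and -0.01.

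In A537T at 10 weeks all 10 members had higher mean normalized counts than WT, 9 of the 10 had log2 estimates above 0, and none passed the test. Myh11 held 10015, 15361 and 25472 in A537T libraries 16AF, 17AF and 18AF, against 19138, 7280 and 4136 in WT as this table gives them (log2 fold change 0.92 ± 0.59, adjusted p = 0.766). Acta2 held 5127, 7818 and 12608 against 8361, 3827 and 2146 (0.96 ± 0.53, adjusted p = 0.749). Actg2 held 742, 2982 and 6900 against 1789, 531 and 202, the largest fold change of the 10 at 2.10 ± 0.98 (adjusted p = 0.746). In each of these genes 18AF was the highest and 16AF the lowest A537T library, 10AF was the highest and 12AF the lowest WT library, and the groups overlapped. Cnn1 held 1967, 3218 and 5581 against 3344, 1097 and 557 (1.37 ± 0.66, adjusted p = 0.749). Tagln held 3246, 5146 and 9031 against 4266, 2220 and 1748 (1.06 ± 0.45, adjusted p = 0.746), and Mylk held 3191, 4970 and 8060 against 7365, 2495 and 1085 (0.89 ± 0.68, adjusted p = 0.775). The highest A537T library exceeded the highest WT library in all of them, while the lowest stayed below it.

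Des had nearly the same mean in both groups, with 3228, 4726 and 7696 in A537T and 3861, 4194 and 7332 in WT (log2 fold change -0.01 ± 0.37). Smtn, Lmod1 and Synpo2 had log2 fold changes of 0.47 ± 0.32, 0.43 ± 0.33 and 0.45 ± 0.34. Of the 10 genes, 0 passed limma's adjusted p, as did 0.0% of 15131 tested genes, and DESeq2 (0.608% of its tested genes) and edgeR also called 0. At an unadjusted p under 0.05, 1 was higher (Tagln, against 2.76% of tested genes) and 0 were lower (3.67%). In 0 of the 10 did the groups separate in either direction, against 5.58% of tested genes above and 6.34% below WT. The median was 0.91 beside 0.01 over all tested genes. With the skeletal muscle score as a covariate every one of the 10 estimates was below 0, with a median of -0.27. The skeletal muscle markers took 1.49% of counts in 18AF, 3.11% in 17AF and 4.19% in 16AF, the reverse of the order of the members, and 3.79%, 6.33% and 12.4% in WT libraries 10AF, 11AF and 12AF; their part was not tested. The seminal vesicle markers took 0.0374% to 0.191% of counts in the A537T libraries, with the smallest share in 18AF, where the members were highest.

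In the KO at 30 weeks 9 of the 10 members had higher estimates than WT, and none passed the test. Myh11 held 7284, 10924 and 10025 in WT libraries 1AF, 2AF and 3AF, and 16765, 8055 and 14577 in KO libraries 4AF, 5AF and 6AF (log2 fold change 0.43 ± 0.30, adjusted p = 0.604). Mylk held 2119, 3759 and 3281 in WT and 7403, 2326 and 5909 in KO (0.65 ± 0.44, adjusted p = 0.601). Actg2 held 514, 1029 and 853 in WT and 1778, 601 and 1471 in KO (0.60 ± 0.44, adjusted p = 0.626). For these 3 genes libraries 4AF and 6AF stood above every WT library and 5AF stood within the WT range.

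Tagln was the member whose groups separated: it held 3255, 3296 and 3358 in WT and 4265, 3771 and 3942 in KO, with a log2 fold change of 0.27 ± 0.09. Its adjusted p was 0.407. Here library 5AF was also above WT. Acta2 held 4062, 5510 and 5100 in WT and 6083, 4243 and 6109 in KO (0.16 ± 0.19, adjusted p = 0.774), and Des held 1398, 1614 and 1711 in WT and 1882, 1361 and 1761 in KO (0.07 ± 0.15, adjusted p = 0.876). Cnn1, Smtn, Lmod1 and Synpo2 had log2 fold changes of 0.41 ± 0.34, -0.07 ± 0.28, 0.20 ± 0.18 and 0.28 ± 0.39.

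Of the 10 genes in the KO at 30 weeks, 0 passed limma's adjusted p, as did 0.0% of 14729 tested genes; DESeq2 (1.94% of its tested genes) and edgeR called 0. Tagln was the 1 gene higher at an unadjusted p under 0.05 (5.56% of tested genes), and 0 were lower (5.41%). It was also the 1 gene whose KO libraries all lay above WT, against 7.92% of tested genes, and 0 lay all below, against 8.41%. The median log2 fold change was 0.28 beside -0.01 over all tested genes. With libraries 4AF and 6AF left out, the median was -0.27, and with the seminal vesicle score as a covariate it was -0.19. Without library 5AF, 1 of the 10 was called (Mylk, log2 fold change 1.16, adjusted p = 0.0439) against 6.35% of tested genes.

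In A537T at 30 weeks 8 of the 10 members had higher estimates than the same WT libraries, and none passed the test. Myh11 held 15145, 6918 and 18083 in A537T libraries 7AF, 8AF and 9AF, against 7353, 11018 and 10146 in WT (log2 fold change 0.40 ± 0.36, adjusted p = 0.629). Mylk held 6141, 2172 and 7450 against 2159, 3826 and 3351 (0.61 ± 0.46, adjusted p = 0.565). Actg2 held 1357, 443 and 1593 against 514, 1029 and 856 (0.36 ± 0.49, adjusted p = 0.763). Libraries 7AF and 9AF stood above every WT library in these genes, and 8AF stood below the WT range for Myh11 and Actg2 and at its lower end for Mylk. Acta2, Cnn1 and Tagln had log2 fold changes of 0.12 ± 0.21, 0.29 ± 0.41 and 0.09 ± 0.13. Des, at 1542, 1106 and 1593 against 1402, 1616 and 1719, had a log2 fold change of -0.17 ± 0.16, and Smtn one of -0.02 ± 0.25. Lmod1 and Synpo2 were at 0.16 ± 0.28 and 0.43 ± 0.28.

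Of the 10, 0 passed limma's adjusted p in A537T at 30 weeks, as did 0.0% of 14789 tested genes, and DESeq2 (3.28% of its tested genes) and edgeR called 0. At an unadjusted p under 0.05, 0 were higher (7.35% of tested genes) and 0 lower (6.28%). In none of the 10 did the groups separate, against 9.18% of tested genes above WT and 9.4% below. The median was 0.22 beside -0.01 over all tested genes. It was -0.46 with libraries 7AF and 9AF left out and -0.36 with the seminal vesicle score as a covariate. Without library 8AF, 2 of the 10 were called, Myh11 (0.82, adjusted p = 0.0474) and Mylk (1.16, adjusted p = 0.0365), against 8.16% of tested genes.

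The change of the mutant effect between the ages was tested over the 12 libraries of each line. For the KO the 30-week effect minus the 10-week effect was -0.65 ± 0.65 for Myh11, -0.78 ± 0.53 for Acta2 and -1.14 ± 0.76 for Cnn1 on the log2 scale. For Des it was 1.01 ± 0.33 (limma adjusted p = 0.315), the smallest p of the 10. For A537T it was -1.74 ± 1.24 for Actg2, -0.98 ± 0.51 for Tagln and -0.52 ± 0.76 for Myh11. In both lines 0 of the 10 genes passed limma's adjusted p, as did 0.0% of the 14295 genes tested for the KO and 0.0% of the 14292 tested for A537T. At an unadjusted p under 0.05, 1 member had a positive change in the KO (Des, against 7.13% of tested genes) and 0 a negative one (4.93%), and in A537T it was 0 in both directions (6.18% and 5.88%).

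At 30 weeks most members were higher in the libraries with much seminal vesicle RNA. Over the 9 libraries of this age, in CPM, the 4 with over 4% of seminal vesicle markers were above all 5 others in 7 of the 10 genes, as in 8.58% of the 14525 genes tested in both 30-week comparisons, and below them in 0, against 13.3%. Mylk ran from 624 to 799 CPM in the 4 and from 239 to 402 CPM in the 5, and Myh11 from 1540 to 1938 CPM against 819 to 1168 CPM. Lmod1 ran from 43.0 to 58.9 CPM against 29.2 to 40.4 CPM. Tagln, Des and Smtn overlapped, with Tagln at 416 to 448 CPM in the 4 and 346 to 457 CPM in the 5. All 4 are KO or A537T libraries, and every WT library of this age is among the 5, so the split is not independent of genotype. The split was read from marker RNA after the libraries had been seen, and the part of the markers in these levels was not tested.

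**Figure D3:**
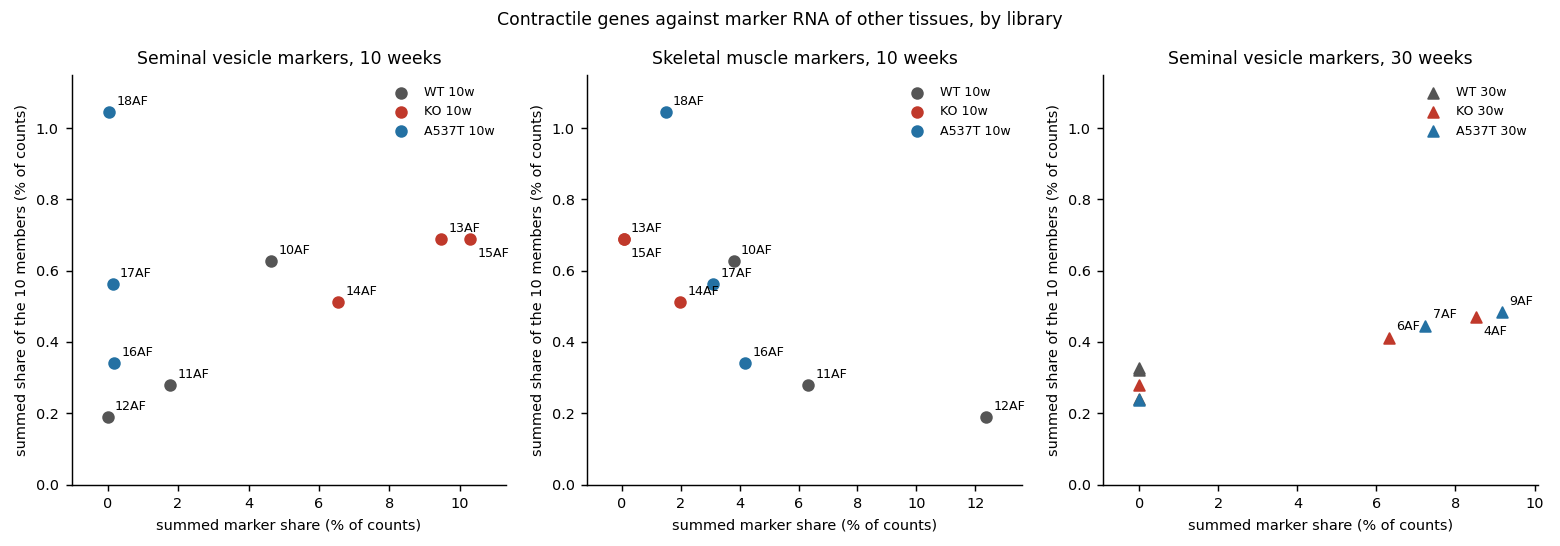
Summed share of the 10 members against the summed share of seminal vesicle or skeletal muscle markers, both in percent of counts, 1 point per library. At 30 weeks the 4 labelled libraries lie at 0.412% to 0.483% and the 5 libraries near 0 on the x axis at 0.238% to 0.326%; at 10 weeks library 18AF has the highest share of the members, 1.04%, with 0.0374% of seminal vesicle markers.

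The makeup of the contractile set also differed between these libraries, and the ratios of members do not depend on how a library is scaled. The ratio of Mylk to Acta2 CPM was 0.880 to 1.22 in the 8 libraries with over 4% of seminal vesicle markers. It was 0.505 to 0.682 in the other 10. The kinase was thus high relative to the actin in WT library 10AF (0.880) and in the KO and A537T libraries among the 8. It was low in KO library 5AF (0.548) and A537T library 8AF (0.555). Library 10AF is the only WT library among the 8, which include every KO library and no A537T library of 10 weeks. The split is therefore not independent of genotype. The ratio of Tagln to Myh11 split the same libraries the other way, at 0.217 to 0.270 in the 8 and 0.302 to 0.468 in the 10. This separation depends on where the libraries are divided. With a threshold of 1%, tried after the data had been seen, WT library 11AF joins the high group with ratios of 0.651 and 0.305, and both ratios then overlap, at 0.651 to 1.22 against 0.505 to 0.682 for Mylk to Acta2 and at 0.217 to 0.305 against 0.302 to 0.468 for Tagln to Myh11. The A537T libraries of 10 weeks, 18AF included, had Mylk to Acta2 ratios of 0.622 to 0.639, within the range of the 10.

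Actg2 against Acta2, the visceral against the vascular type of smooth muscle actin, was highest in A537T libraries 17AF and 18AF of 10 weeks. Per kilobase of exon the ratio was 0.135 to 0.308 in WT and 0.281 to 0.411 in KO at 10 weeks. It was 0.204 in A537T library 16AF, within the WT range, and 0.538 and 0.772 in 17AF and 18AF, the highest of the 18 libraries. At 30 weeks it was 0.178 to 0.263 in WT, 0.200 to 0.412 in KO and 0.160 to 0.360 in A537T. Of the 50-base words in their transcripts, Actg2 shared 0 with any other gene and Acta2 shared 0.326%, with 6 genes that include Actg1 and not Actg2.

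Des against Myh11 was highest in WT libraries 11AF and 12AF, which held the most skeletal muscle RNA. The CPM ratio was 0.203, 0.578 and 1.78 in WT libraries 10AF, 11AF and 12AF, in the order of their skeletal muscle markers. At the same age it was 0.302 to 0.322 in A537T and 0.110 to 0.200 in the KO, and 0.0881 to 0.192 in all 9 libraries of 30 weeks. The 3 A537T libraries differed by 3.07-fold in the summed share of the members and hardly in this ratio. Their skeletal muscle markers took 1.49% to 4.19% of counts. WT library 10AF held 3.79% of these markers and had a lower ratio than all 3.

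**Figure D4:**
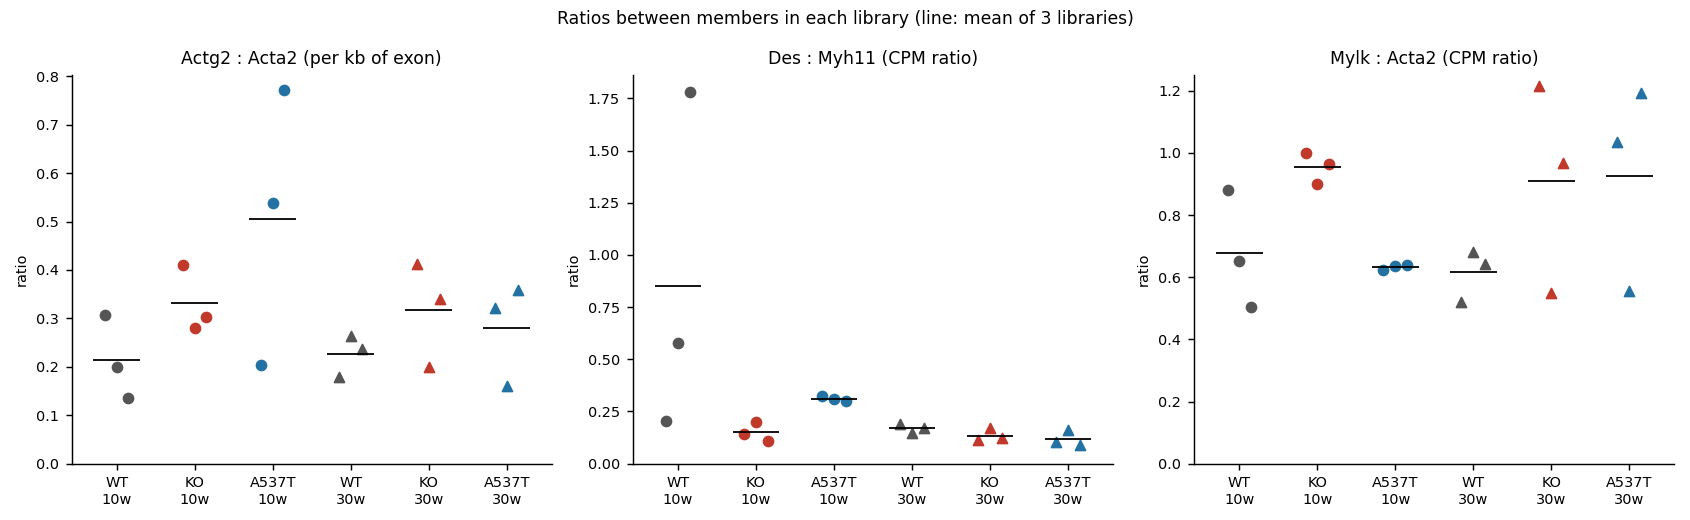
Ratios between members in each library, by group, with the mean of 3 libraries as a line: Actg2 to Acta2 per kilobase of exon, Des to Myh11 in CPM and Mylk to Acta2 in CPM. A537T libraries 17AF and 18AF reach 0.538 and 0.772 in the first ratio, and WT library 12AF reaches 1.78 in the Des ratio.

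The other contractile genes had smaller medians than the 10 members. Of 24 other genes of the contractile apparatus and its attachments, 0 passed limma's adjusted p in any comparison, and their medians were 0.25 (KO) and 0.22 (A537T) at 10 weeks and 0.20 and 0.16 at 30 weeks. Flna, with a mean of 1412 CPM, had log2 fold changes of 0.83 ± 0.38 and 0.79 ± 0.44 at 10 weeks. Tpm1 and Tpm2, the tropomyosins that lie along actin, had -1.62 ± 0.41 and -1.23 ± 0.33 in the KO at 10 weeks and 0.36 ± 0.14 and 0.48 ± 0.32 at 30 weeks. Both tropomyosins are also made by skeletal muscle. In the KO at 10 weeks 14 of the 24 had higher and 10 had lower estimates. They ran from -4.39 ± 1.08 for Ldb3 to 1.33 ± 0.59 for Cald1. The part of skeletal muscle RNA in these estimates and in the median was not tested. In the KO at 10 weeks DESeq2 called 5 of the 24 lower (3.54% of its tested genes) and 0 higher (1.21%), 8 lay below WT in all libraries (14.3% of tested genes) and 2 above (11.7%).

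The genes that set the calcium signal also had smaller medians than the 10 members. These were 0.31 (KO) and 0.18 (A537T) at 10 weeks and 0.14 and 0.09 at 30 weeks. In the KO at 10 weeks 5 were higher at an unadjusted limma p under 0.05 (7.97% of tested genes) and 3 were lower (11.5%). Of 23 listed, 18 or 19 passed the minimum in each comparison, and limma called 0. DESeq2 called 1, lower, in the KO at 10 weeks (3.54% of its tested genes) and 0 elsewhere. Atp2a2, the calcium pump of the sarcoplasmic reticulum, had log2 fold changes of -0.12 ± 0.13, -0.09 ± 0.14, 0.03 ± 0.16 and 0.10 ± 0.14 in KO and A537T at 10 weeks and KO and A537T at 30 weeks. Itpr1, the calcium release channel opened by inositol trisphosphate, was at 0.91 ± 0.36, 0.18 ± 0.38, 0.62 ± 0.31 and 0.61 ± 0.20 in the same order, and none passed the adjusted test.

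The regulators upstream of the members had estimates on both sides of 0. Of 16 genes of SRF, its cofactors and other regulators, 12 to 15 were tested, limma called 0, and the medians were 0.04 (KO) and 0.16 (A537T) at 10 weeks and -0.0037 and 0.02 at 30 weeks. Fhl1, which is also abundant in skeletal muscle, was at -2.41 ± 0.46 in the KO at 10 weeks, where DESeq2 called 3 of the list lower (3.54% of its tested genes). Tead1, a partner of YAP, was at -1.09 ± 0.26 there, and Mrtfb, an SRF cofactor, at 0.10 ± 0.15. Fhl1 and Tead1 rose from WT library 10AF to 12AF as the skeletal muscle markers did, and the part of that RNA was not tested. Myocd, the gene of myocardin, was at 1.57 ± 0.71 (KO) and 0.46 ± 0.71 (A537T) at 10 weeks. At 30 weeks it was at 0.29 ± 0.36 and 0.79 ± 0.25. Srf was at -0.34 ± 0.21 and 0.04 ± 0.20 at 10 weeks and at -0.09 ± 0.19 and 0.05 ± 0.18 at 30 weeks. The cytoplasmic actins and nonmuscle myosins, present in every cell, had medians of -0.07, 0.04, 0.01 and -0.14 over 7 genes, in the same order, with Actb between 0.18 ± 0.12 and 0.33 ± 0.22.

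**Figure D5:**
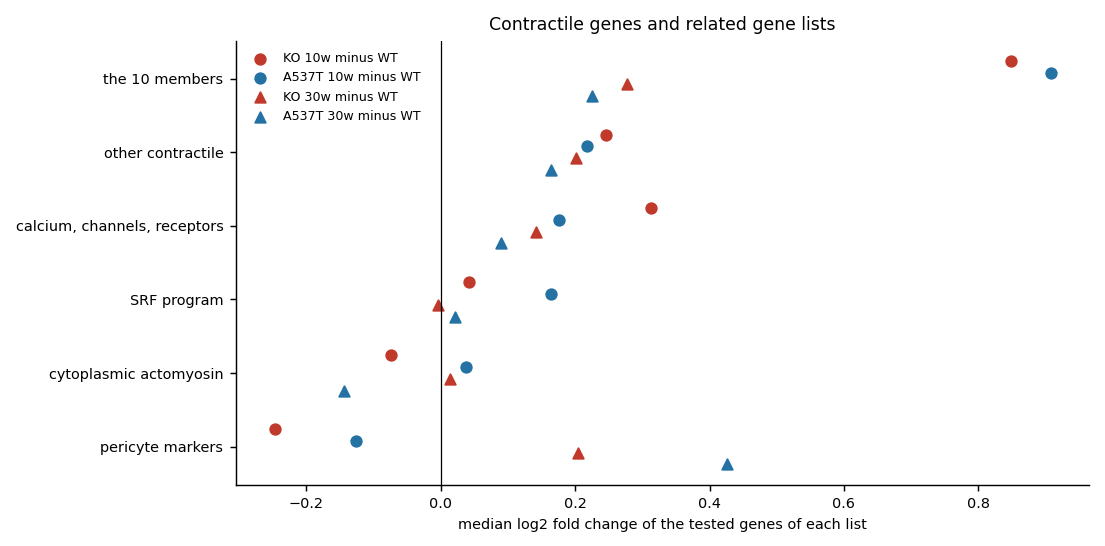
Median log2 fold change, mutant minus WT, of the tested genes of the 10 members and of 5 related gene lists; circles are the 10-week and triangles the 30-week comparisons. The members' medians of 0.85 and 0.91 at 10 weeks lie to the right of the other lists, whose medians run from -0.25 to 0.43 over the 4 comparisons.

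Markers of neighbouring stromal cells were counted beside the members. Of 8 pericyte markers, 6 were tested in each comparison, and their medians were -0.25 and -0.13 at 10 weeks and 0.20 and 0.43 at 30 weeks, with DESeq2 calling 2 lower in the KO at 10 weeks (3.54% of its tested genes). Their summed share was 0.0158% to 0.0177% of counts in the KO at 10 weeks and 0.0224% to 0.0257% in WT. In the KO at 10 weeks Abcc9 and Rgs5 were at -1.42 ± 0.34 and -1.29 ± 0.24 and Cspg4 at 0.55 ± 0.39. Notch3 and Pdgfrb were at -0.04 ± 0.20 and -0.05 ± 0.15. Abcc9 held 66.0, 81.0 and 125 CPM in WT libraries 10AF, 11AF and 12AF, the order of their skeletal muscle markers. The part of skeletal muscle RNA in these markers was not tested. The summed share of 12 fibroblast markers was 0.322% in A537T library 18AF, the highest of the 18 libraries, and 0.127% to 0.203% in WT of the same age. The summed share of 5 basal epithelial markers was 0.00891%, 0.0194% and 0.0405% in A537T libraries 16AF, 17AF and 18AF, the order of the members, and 0.00638% to 0.0112% in WT of that age; their part was not tested. Luminal epithelial markers took 0.830%, 2.38% and 2.69% of counts in WT libraries 10AF, 11AF and 12AF, the reverse of the order of the members within WT. In the KO libraries of that age they took 0.521% to 0.923%. Most of this sum was Spink1, at 4574, 19347 and 24722 CPM in the 3 WT libraries. Pbsn, of the same list, ran the other way, at 1720, 1257 and 288 CPM. Of the 13 markers, 6 had higher and 7 had lower estimates in the KO at 10 weeks, with a median of -0.01. The part of these markers in the levels of the members was not tested.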

How the data were processed

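Total RNA of 18 mouse prostate libraries (3 per genotype and age) was sequenced, and the gene counts were analysed here as deposited. Per the labels and the study's methods, reads were trimmed with Trim Galore 0.4.1 and cutadapt 1.18, aligned with STAR 2.7.3a to GRCm38.p6 with GENCODE vM24, quantified with Salmon in a strand-specific mode and scaled with DESeq2 1.26. The deposited values are a signal, gene counts that the authors divided by a size factor per library, in 4 tables of 6 libraries, so that each WT library stands in 2 tables. Whole-number counts, called recovered reads here, were computed back from them (at least 99.98% of values within 0.01 of a whole number). They are estimates rather than raw reads, since for the same WT library they differed by gene between its 2 tables. In 10AF, Myh11 had 18950 in the KO table and 18478 in the A537T table, while Acta2 had 8021 and 8072. Column names carry neither group nor replicate number; groups were matched through the study's own mean values and through the WT columns that recur in both tables of an age. CPM is the deposited value per 1000000 of its column's total. Gene positions and exon lengths are from GENCODE M21.

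The test was limma 3.58.1 with a mean trend on log2(normalized count + 1), over genes with a mean of at least 10, mutant against the WT of the same table, with Benjamini-Hochberg adjustment at 0.05. Fold changes on this scale understate those of low genes. The change with age was an interaction over 12 libraries. Alternatives were a pseudocount of 8, minimums of 1 and 100, a common total, no trend, DESeq2 1.42.0 and edgeR 4.0.16 on recovered reads, each library left out, and marker scores as covariates. The fits were tested on simulated data. The p-values measure the spread between these libraries. The 10 members, the gene lists and the tests were chosen with earlier results of these data known. All 10 members are named in each comparison, with Elac2, the 3 genes of each related list with the highest mean CPM, and the 10 genes of at least 10 CPM most like the members. Srf and Myocd are named as well, and a few further list genes were named with their results seen. Of 11 seminal vesicle symbols, 9 were found. Some list results are not reported here.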

Additional observations from a re-analysis of the deposited data

How the results depend on the processing

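No paired analysis was possible because neither the labels nor the columns of the tables link a mutant library to a WT library, such as by litter. Over all alternatives that kept every library, the count of called members stayed at 0 except for DESeq2 in the KO at 10 weeks, which called 1. Leaving out single libraries gave counts of 0 to 9 in the KO at 10 weeks, 0 to 1 in the KO at 30 weeks and 0 to 2 in A537T at 30 weeks, and 0 in A537T at 10 weeks. The median log2 fold change of the members fell to 0.28 with the skeletal muscle score in the KO at 10 weeks, where that marker share did not overlap between KO and WT. With the same score it became -0.27 in A537T at 10 weeks. With the seminal vesicle score it was -0.19 in the KO and -0.36 in A537T at 30 weeks, and without the 2 mutant libraries with seminal vesicle RNA, where the lone mutant library is assumed to vary like WT, -0.27 and -0.46. Leaving out single libraries moved it from 0.48 to 1.28 (KO, 10 weeks), 0.40 to 1.45 (A537T, 10 weeks), 0.11 to 0.55 (KO, 30 weeks) and just below 0 to 0.58 (A537T, 30 weeks).

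These estimates changed sign. With the skeletal muscle score, Lmod1 in the KO at 10 weeks was -0.082, and in A537T at 10 weeks Myh11 was -0.49, Acta2 -0.34, Mylk -0.73, Cnn1 -0.25, Tagln -0.038, Actg2 -0.36, Smtn -0.23, Lmod1 -0.27 and Synpo2 -0.27. Des in A537T at 10 weeks was 0.13 with a common total, 0.030 with DESeq2 and 0.022 with edgeR. With the seminal vesicle score in the KO at 30 weeks, Myh11 was -0.12, Acta2 -0.14, Mylk -0.22, Cnn1 -0.23, Actg2 -0.21, Des -0.17, Lmod1 -0.11 and Synpo2 -0.48; without the 2 libraries they were -0.20, -0.19, -0.35, -0.33, -0.35, -0.21, -0.16 and -0.60. In A537T at 30 weeks the score gave Myh11 -0.34, Acta2 -0.25, Mylk -0.34, Cnn1 -0.57, Tagln -0.15, Actg2 -0.64, Lmod1 -0.38 and Synpo2 -0.037, and leaving out the 2 libraries gave -0.44, -0.31, -0.48, -0.68, -0.17, -0.79, -0.45 and -0.12. Smtn was 0.0041 there with a common total. None of these passed an adjusted p of 0.05, and the cause was not tested.

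With single libraries left out, the ranges that crossed 0 were -0.33 to 0.30 for Des in A537T at 10 weeks. In the KO at 30 weeks they were -0.019 to 0.21 for Des, -0.29 to 0.20 for Smtn and -0.025 to 0.73 for Synpo2. In A537T at 30 weeks they were -0.0079 to 0.33 for Acta2, -0.014 to 0.78 for Cnn1, -0.12 to 0.46 for Lmod1 and -0.23 to 0.21 for Smtn. For the change with age of the KO effect they were -0.25 to 0.17 for Lmod1 and -0.42 to 0.33 for Synpo2, and for that of A537T -0.9987 to 0.38 for Mylk, -0.47 to 0.16 for Des, -0.57 to 0.028 for Lmod1 and -0.36 to 0.29 for Synpo2. The members held 190 to 25248 reads per library, and each group has 3 libraries. The summed shares of the members moved by less than the SD between replicates under both other totals.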

Other observations

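In the WT libraries, in CPM, Synpo2 was at 243 ± 86.8 (SD, n = 3) at 10 weeks and 137 ± 31.5 at 30 weeks, and Des was at 551 ± 128 and 175 ± 18.4, while Acta2 was at 535 ± 402 and 542 ± 73.1. The tables of the 2 ages were scaled separately, and these levels were not tested. In A537T Des was at 629 ± 318 at 10 weeks and 159 ± 24.6 at 30 weeks. Skeletal muscle markers, whose cells also make Des, took 3.79% to 12.4% of counts in WT and 1.49% to 4.19% in A537T at 10 weeks and at most 0.0704% in any library at 30 weeks; their part in these levels was not tested.

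Endothelial markers, which line the vessels whose walls also hold smooth muscle, had medians of -0.08 and 0.04 in KO and A537T at 10 weeks and 0.24 and 0.35 at 30 weeks over 10 tested genes, with 0 called by limma or DESeq2. Of 7 nerve markers, all 7 were tested at 10 weeks, with medians of 0.69 in KO and 0.72 in A537T, again with 0 called by either tool. At 30 weeks the medians lay below 0. In the KO it was -0.93, all 6 tested had lower estimates, limma called 0, DESeq2 called 1 lower (0.611% of its tested genes), 2 were lower at an unadjusted p under 0.05 (5.41% of tested genes) and 2 lay below WT in all libraries (8.41%). In A537T it was -0.17, all 7 had lower estimates and 0 were called by either tool. Of 6 adipocyte markers, all 6 had lower estimates in the KO at 10 weeks (median -1.08) and higher ones in the other 3 comparisons, with 0 called.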
